A study of Mus musculus with 6 samples.

Results

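The endothelial and mural cell genes are 36 genes used as markers of the cells that build brain blood vessels, and they were followed here in RNA-seq of the mouse striatum. They were chosen by name: 26 genes of endothelial cells, 6 of pericytes and 4 of smooth muscle cells, each matched by its Ensembl identifier in the deposited table of 46078 genes. All 36 passed the minimum mean of 10 normalized reads and were tested together with 17605 genes in all. Apart from that minimum the rule used names only, and the list was drawn up with earlier results of these data known. Striatum was compared between Shank3 TG mice, which carry an EGFP-tagged Shank3 transgene and overexpress this postsynaptic scaffold protein, and WT controls without it. Both groups held 3 male mice aged 12 weeks on a C57BL/6J background, with 1 library per mouse, and the transgene was the only stated difference between them. The p-values weigh group differences against the spread between these mice. The study asked which pathways differ in the striatum of a mouse with manic-like behavior, and the comparison below asks it of the vessel wall.

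Endothelial cells line every vessel of the brain. They form the blood-brain barrier through tight junctions and polarized transporters, a state that depends on Wnt and on contact with neighbouring cells. Pericytes sit on capillaries within a shared basement membrane, while smooth muscle cells wrap arteries and arterioles and set their diameter. In RNA from whole tissue these cells are a minority, so that fewer vessel cells and less RNA per vessel cell cannot be told apart.

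Shank3 (chr15:89499623-89560261, + strand, GRCm38) was measured first as the check of the labels. Its normalized read count, meaning gene reads divided by the size factor of the library, was 29891, 28309 and 26044 in TG replicates 1, 2 and 3, and 13807, 12918 and 13865 in WT replicates 1, 2 and 3. The groups did not overlap, and the means were 28081 ± 1934 and 13530 ± 531 (SD, n = 3 each). The log2 fold change was 1.05 with a standard error (SE) of 0.06 and an adjusted p of 7.04e-05 (limma, Benjamini-Hochberg over all genes tested), so each library carried the level its label gives. Striatal projection neuron genes were high in all libraries, with Penk at 14760 and Ppp1r1b at 8554 normalized reads per kb of exon on average. Library totals recovered from the values lay between 27689589 and 36647626 reads.

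The 36 genes spanned a wide range of levels. Per kb of exon, which allows genes to be set beside each other, the highest means over the 6 libraries were those of Itm2a (886), Vtn (878), Rgs5 (771), Cldn5 (655), Pltp (584), Ly6c1 (510) and Ly6a (426). The ranges of Itm2a and Vtn over the libraries overlapped, as did those of Vtn and Rgs5. The lowest were Anpep at 24.2, Sox17 at 36.1 and Emcn at 36.3. Class medians per kb were close, at 128 for endothelial, 134 for pericyte and 123 for smooth muscle genes, beside 121 for the 17519 tested genes with an exon length. The vessel classes were thus all present in the dissected striatum, at levels near that of a typical tested gene.

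**Figure D1:**
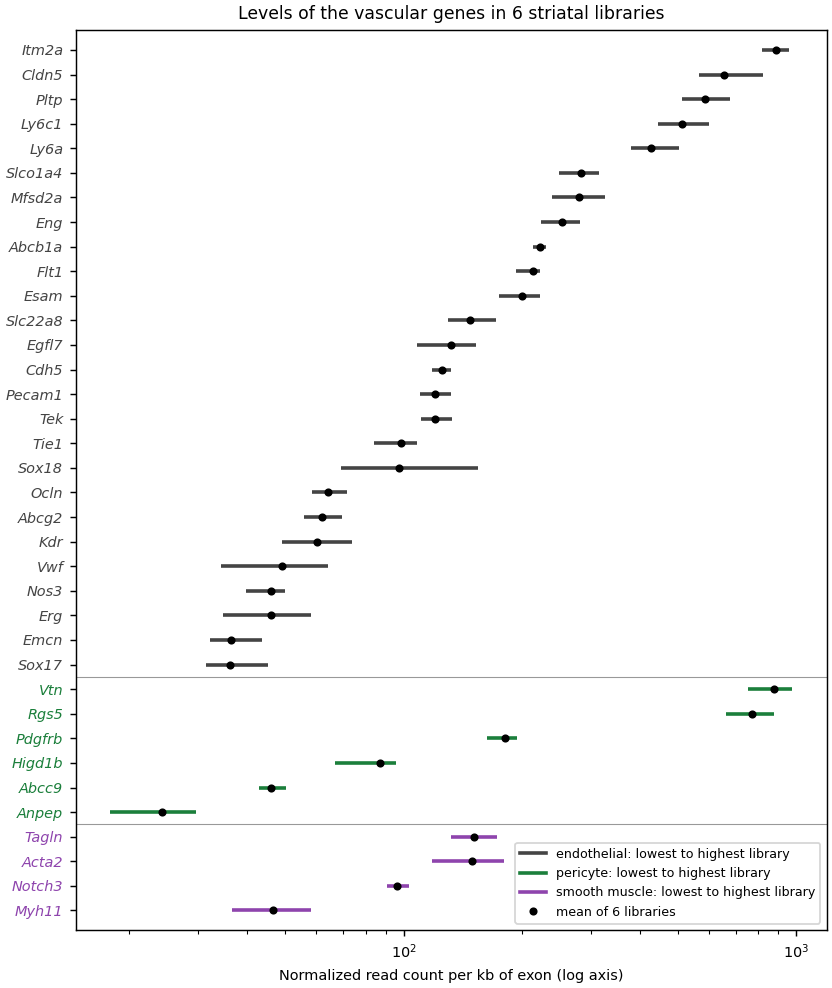
Levels of the 36 vascular genes as normalized read count per kb of exon on a log axis, with the mean of 6 libraries (point) and the lowest to highest library (line), grouped into endothelial, pericyte and smooth muscle genes. Itm2a (886) and Vtn (878) had the highest means and Anpep (24.2) the lowest, and Sox18 had the widest range for its level, from lowest to highest library by 2.23-fold.

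No member differed between Shank3 TG and WT mice at an adjusted p under 0.05 in limma, where 0.00568% of all genes tested did, a single gene that was Shank3. edgeR (background 0.00568%) and DESeq2 (background 0.0398%) also called 0 of the 36. Adjusted p-values of the members lay between 0.971 and 0.999. At an unadjusted p under 0.05 in limma there was 1 member higher in TG mice, Ly6c1, and 1 lower, Vtn, beside 4.31% of all genes tested (1.98% higher and 2.33% lower). At that level edgeR (background 4.38%) and DESeq2 (background 2.45%) each gave 1 higher, Ly6c1, and 3 lower, Cldn5, Sox18 and Vtn. Ly6c1 and Vtn were also the only 2 of 36 (5.56%) whose groups did not overlap, beside 10.1% of all genes (5.06% with TG higher and 5.05% with TG lower). Both limma shares were near or under the background. In edgeR 1.98% of all genes were higher and 2.4% lower at an unadjusted p under 0.05, and in DESeq2 1.15% and 1.3%. The 3 of 36 lower members of these 2 fits were above those lower shares. Below, higher and lower describe group means, and none of these differences passed the adjusted test.

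The differences leaned to one side and were small. By group means, 28 of 36 members (77.8%) were lower in TG mice, and 8 were higher (22.2%), beside 50.8% lower and 49.2% higher of all genes tested. Their median log2 fold change was -0.07 against -0.00 for all genes tested. Among the classes, 20 of 26 endothelial genes were lower with a median of -0.04, 5 of 6 pericyte genes with a median of -0.12, and 3 of 4 smooth muscle genes with a median of -0.09. The members do not vary independently between mice, so this count is a description. The median of all 36 was -0.12 without WT replicate 2 and -0.01 without WT replicate 1.

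The intervals show how much change the data allow. For 33 of 36 members (91.7%) the whole 95% interval of the fold change lay within 1.5-fold in either direction, beside 79.4% of all genes tested. Sox18, Vwf and Anpep were the exceptions. Within 1.2-fold lay 14 members (38.9%), beside 49.2% of all genes. Abcb1a had one of the narrow intervals, from -0.13 to 0.11 on the log2 scale, and Flt1 another, from -0.14 to 0.14.

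**Figure D2:**
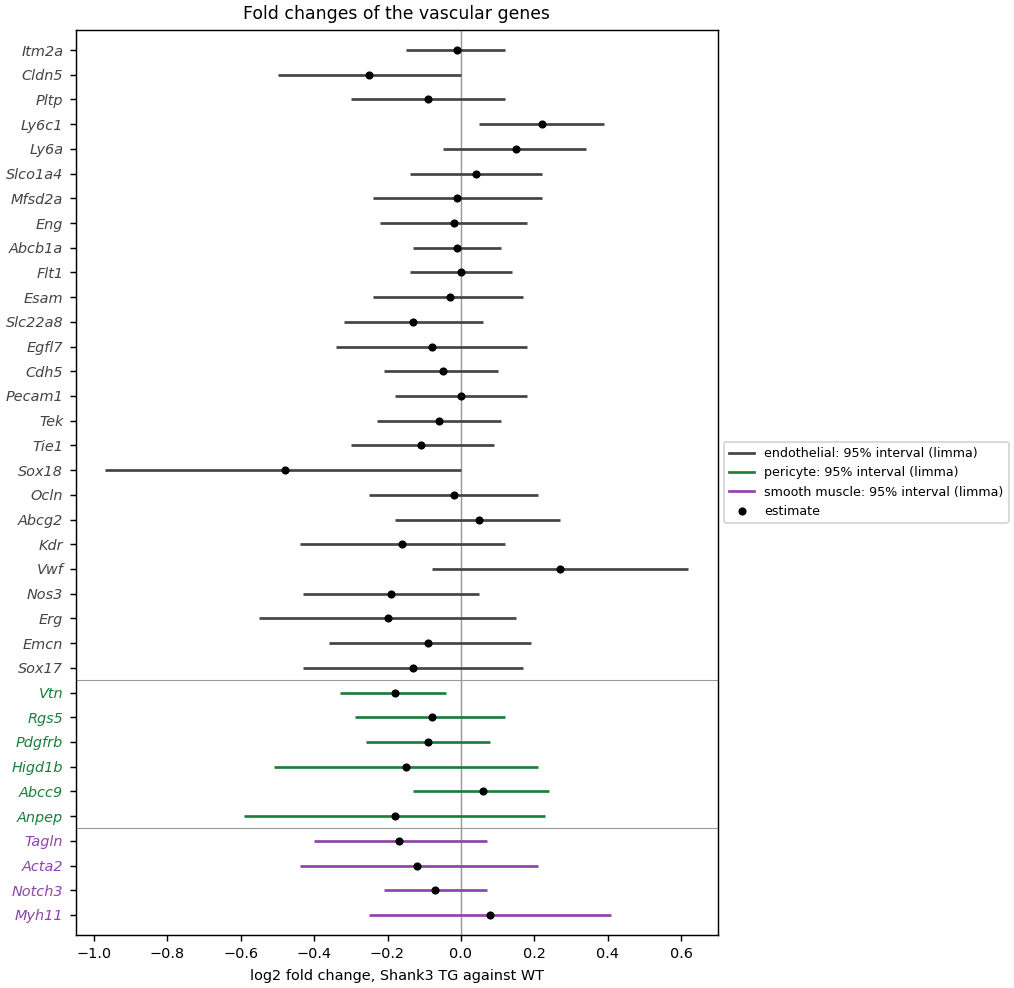
Log2 fold change of each of the 36 vascular genes, Shank3 TG against WT, with the limma estimate (point) and 95% interval (line), 3 mice per group. The interval lies above 0 for Ly6c1 (0.05 to 0.39) and below 0 for Vtn (-0.33 to -0.04), and the widest is that of Sox18 (-0.97 to 0.00).

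The junction and adhesion genes were led by Cldn5 (chr16:18776847-18778262, +), which encodes the main claudin of the brain endothelial tight junction. Its normalized read count was 867, 800 and 863 in TG striatum versus 1162, 809 and 1066 in WT striatum. The TG mice lay close together, while WT replicates 1 and 3 were above them and WT replicate 2 lay among them. The means were 843 ± 37.5 and 1012 ± 182 (SD, n = 3), with a log2 fold change of -0.25 (SE 0.11, limma unadjusted p = 0.0519). On the recovered reads the unadjusted p was 0.0407 in edgeR's quasi-likelihood test and 0.0196 in DESeq2. The fold change was -0.40 without WT replicate 2 and -0.14 without WT replicate 1. Ocln, a second tight junction protein, had a log2 fold change of -0.02 (SE 0.10). The other junction members differed by less than their spread between mice: Cdh5, or VE-cadherin, by -0.05 (SE 0.07), Esam, an adhesion molecule of endothelial contacts, by -0.03 (SE 0.09), and Pecam1, or CD31, by -0.00 (SE 0.08).

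Vessel growth factor receptors had log2 fold changes between -0.16 and 0.00. Flt1, a receptor that binds VEGF, had 2931, 2871 and 2807 normalized reads in TG striatum versus 3005, 2604 and 3017 in WT striatum. Its log2 fold change was 0.00 (SE 0.06), with the TG mice inside the WT range. Kdr, the main signalling receptor for VEGF-A, counted 557, 443 and 536 against 668, 473 and 580, with a log2 fold change of -0.16 (SE 0.13). The angiopoietin receptor Tek differed by -0.06 (SE 0.08), its relative Tie1 by -0.11 (SE 0.09), and the TGF-beta co-receptor Eng by -0.02 (SE 0.09). Eng overlaps Fpgs (224 normalized reads on average) on the opposite strand.

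Barrier transporters had the median log2 fold change nearest 0 among the endothelial groups, -0.01, and ranged from -0.13 to 0.05. Abcb1a, the P-glycoprotein that exports drugs into blood, counted 1235, 1225 and 1178 in TG striatum versus 1268, 1170 and 1228 in WT striatum. All 6 libraries lay within 1.08-fold of each other. Of its 50-base exon runs 16.3% also occur in Abcb1b, so some reads could belong to either gene. The organic anion carrier Slco1a4 differed by 0.04 (SE 0.08), the efflux pump Abcg2 by 0.05 (SE 0.10) and the lysolipid carrier Mfsd2a by -0.01 (SE 0.10). Slc22a8, an organic anion transporter, was at -0.13 (SE 0.09). Pltp, the phospholipid transfer protein, counted 1739, 1306 and 1328 in TG striatum versus 1547, 1538 and 1523 in WT striatum, a log2 fold change of -0.09 (SE 0.09), with TG replicate 1 above and TG replicates 2 and 3 below all WT mice. Pltp overlaps Ctsa (2842 normalized reads on average) on the opposite strand, and whether the counting used strand is not given in the sources used here.

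The endothelial transcription factors were all lower in the TG means, Sox18 by the widest margin of any member. Sox18 (chr2:181669836-181671640, -) encodes a SOX factor of vascular development. Its counts were 120, 112 and 156 in TG striatum versus 181, 127 and 250 in WT striatum, means 129 ± 23.2 and 186 ± 61.7 (SD, n = 3). TG replicate 3 lay above WT replicate 2, so the groups overlapped. The log2 fold change was -0.48 (SE 0.22, limma unadjusted p = 0.0512), and it was -0.24 without WT replicate 3 and -0.73 without WT replicate 2. The unadjusted p was 0.0418 in edgeR and 0.0168 in DESeq2. Sox17, which acts in arterial endothelium, differed by -0.13 (SE 0.14), and Erg, an ETS factor of endothelial identity, by -0.20 (SE 0.16).

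ETS factors bind DNA at a GGAA core. The 250 bases before the RefSeq start of each gene (GRCm38.p6), which can lie inside the GENCODE gene, were searched on both strands for CAGGAAG, one spelling of an ETS-type site. It was present in 10.8% of 32851 windows, and in 12.1% of 27025 genes when counted per gene. RefSeq windows were at hand for 24 of the 36 members. Of the 18 endothelial ones 5 held it, namely Abcg2, Itm2a, Erg, Egfl7 and Emcn, and of the 6 mural ones none did. A match is a description of letters and not a site that was shown to be bound. The windows below, read 5′ to 3′ along the gene, are examples from endothelial members, chosen after their values were seen, with the motif or its reverse complement in capitals.
Egfl7, chr2:26580833-26581082, + strand: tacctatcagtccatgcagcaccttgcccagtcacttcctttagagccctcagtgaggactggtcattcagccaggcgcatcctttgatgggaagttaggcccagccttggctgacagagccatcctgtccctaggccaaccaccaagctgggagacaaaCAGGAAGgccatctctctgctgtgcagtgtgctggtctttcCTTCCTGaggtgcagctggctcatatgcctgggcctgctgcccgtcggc
Emcn, chr3:137340828-137341077, + strand: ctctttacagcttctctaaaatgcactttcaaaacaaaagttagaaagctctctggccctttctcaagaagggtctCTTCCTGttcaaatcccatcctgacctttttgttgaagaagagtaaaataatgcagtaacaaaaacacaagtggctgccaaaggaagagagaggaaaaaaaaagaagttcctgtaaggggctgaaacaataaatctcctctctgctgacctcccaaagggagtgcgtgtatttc
Itm2a, chrX:107403361-107403610, - strand: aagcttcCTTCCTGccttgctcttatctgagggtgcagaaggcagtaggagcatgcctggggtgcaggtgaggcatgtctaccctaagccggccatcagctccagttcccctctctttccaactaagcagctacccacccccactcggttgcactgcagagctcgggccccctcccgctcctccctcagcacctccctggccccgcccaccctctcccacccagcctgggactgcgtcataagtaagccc
Egfl7, a secreted factor of endothelial cells and host gene of a microRNA, counted 458, 451 and 458 in TG striatum versus 549, 388 and 524 in WT striatum. The TG mice were almost equal, and the WT mice lay on both sides of them, with a log2 fold change of -0.08 (SE 0.12). Emcn, an endothelial sialomucin, differed by -0.09 (SE 0.12), and Itm2a, a membrane protein high in brain endothelium, by -0.01 (SE 0.06). Of these, each was highest in WT replicate 1.

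Ly6c1 and Ly6a, surface proteins of mouse endothelium and of blood cells, were the only endothelial group with higher TG means in every member. Ly6c1 (chr15:75044018-75048830, -) counted 1006, 900 and 856 in TG striatum versus 847, 744 and 783 in WT striatum. All TG mice lay above all WT mice, although TG replicate 3 and WT replicate 1 were close. The means were 921 ± 76.9 and 791 ± 52.2 (SD, n = 3), with a log2 fold change of 0.22 (SE 0.08, limma unadjusted p = 0.0164, adjusted p = 0.971). The two-sided exact permutation p was 0.1, the smallest that 3 against 3 mice can give. Its unadjusted p was not under 0.05 without TG replicate 1 or without WT replicate 2. Ly6a (chr15:74994877-74998031, -), known as Sca-1, counted 605, 498 and 518 in TG striatum versus 458, 519 and 482 in WT striatum. It had a log2 fold change of 0.15 (SE 0.09), and of 0.06 without TG replicate 1. It shares 15% of its 50-base exon runs with Ly6c1.

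Ly6c1 shares sequence with its neighbour Ly6c2, a gene of monocytes. Of the 50-base runs in Ly6c1 exons, 21.5% also occur in Ly6c2, so some reads could belong to either gene. The reads were longer than 50 bases, and the share that fits both genes was not measured. Ly6c2 counted 57.5, 48.3 and 41.9 in TG striatum versus 34.3, 40.2 and 37.3 in WT striatum, again without overlap, with a log2 fold change of 0.38 (SE 0.19, limma unadjusted p = 0.0669). Other family members near it had values close to 0: Ly6e differed by 0.04 (SE 0.09), Ly6h by 0.05 (SE 0.09) and Lynx1 by -0.01 (SE 0.06). The 250 bases before the Ly6c1 and Ly6c2 starts are shown because the pair shares a 20-base run there, in capitals.
Ly6c1, chr15:75048838-75049087, - strand: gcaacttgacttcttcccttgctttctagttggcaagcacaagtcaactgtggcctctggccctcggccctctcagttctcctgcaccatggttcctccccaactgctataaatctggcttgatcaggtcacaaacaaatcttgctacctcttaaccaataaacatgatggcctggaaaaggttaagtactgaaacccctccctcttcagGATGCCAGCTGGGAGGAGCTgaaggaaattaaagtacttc
Ly6c2, chr15:75111972-75112221, - strand: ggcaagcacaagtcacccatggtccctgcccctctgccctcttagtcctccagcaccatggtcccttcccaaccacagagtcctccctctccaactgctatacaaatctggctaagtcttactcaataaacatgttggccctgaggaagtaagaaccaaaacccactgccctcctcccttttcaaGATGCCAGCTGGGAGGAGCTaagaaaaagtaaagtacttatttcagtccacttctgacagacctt
Both windows come from RefSeq, and the shared run is a property of the letters only.

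Vwf and Nos3 are products of endothelial cells with a role in clotting and in vessel tone. Vwf (chr6:125546774-125686679, +), von Willebrand factor, counted 1031, 851 and 694 in TG striatum versus 549, 803 and 782 in WT striatum. The groups overlapped, with TG replicate 1 highest and WT replicate 1 lowest of the 6 libraries. The log2 fold change was 0.27 (SE 0.16, limma unadjusted p = 0.116), 0.42 without TG replicate 3 and 0.10 without WT replicate 1. Of the hemoglobin genes, Hbb-bs had a like order, at 1273, 1021 and 781 in TG and 688, 921 and 938 in WT mice. Hba-a1 counted 992, 720 and 522 in TG and 530, 655 and 625 in WT mice. It was highest in TG replicate 1 too, but lowest in TG replicate 3, as was Hba-a2. Hemoglobin genes are near-identical copies, so a read could belong to more than 1 of them. Their part in the Vwf values was not tested. Nos3, the endothelial nitric oxide synthase, counted 202, 164 and 167 in TG striatum versus 204, 207 and 194 in WT striatum, a log2 fold change of -0.19 (SE 0.11). TG replicate 1 lay within the WT range and the other TG mice below it. Nos3 overlaps Atg9b (123 normalized reads on average) and Gm15587 (23.2) on the opposite strand.

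**Figure D3:**
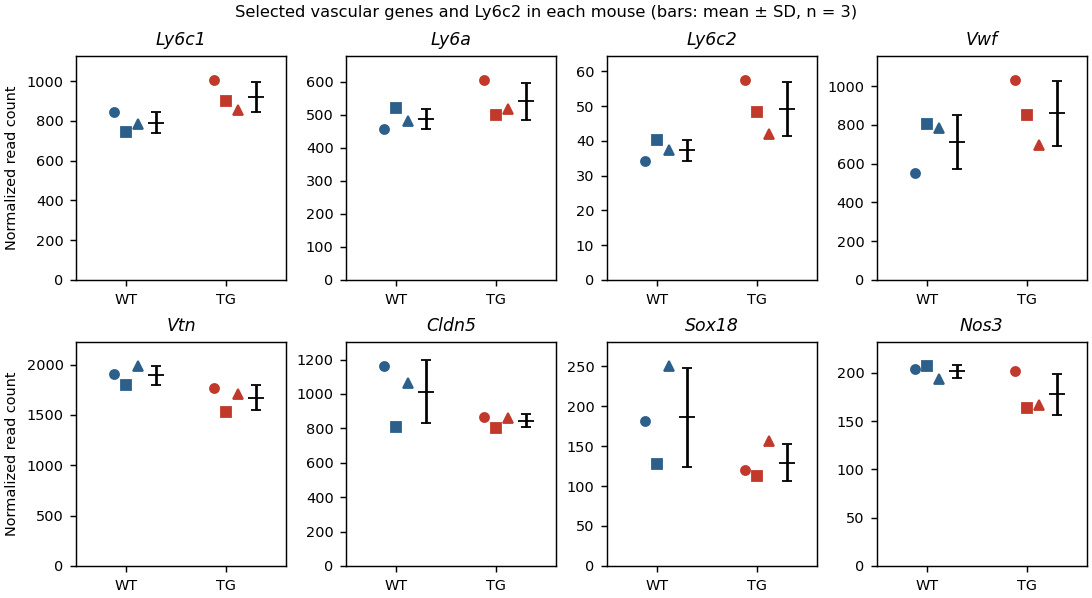
Normalized read count per mouse of Ly6c1, Ly6a, Ly6c2, Vwf, Vtn, Cldn5, Sox18 and Nos3, with WT in blue, Shank3 TG in red, circles for replicate 1, squares for replicate 2 and triangles for replicate 3, and bars for mean ± SD (n = 3). Vertical axes start at 0; the groups do not overlap for Ly6c1, Ly6c2 and Vtn, and they overlap for the other 5 genes.

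Vtn, vitronectin, led the pericyte genes (chr11:78499091-78502324, +). It counted 1767, 1533 and 1712 in TG striatum versus 1904, 1796 and 1984 in WT striatum, with means of 1671 ± 122 and 1895 ± 94.6 (SD, n = 3). Every TG mouse lay below every WT mouse, by a small gap between TG replicate 1 and WT replicate 2. The log2 fold change was -0.18 (SE 0.06, limma unadjusted p = 0.0169, adjusted p = 0.971), and between -0.22 and -0.12 when each library was left out in turn. Its unadjusted p was not under 0.05 without TG replicate 2 or without WT replicate 3. Rgs5, a regulator of G protein signalling, counted 3001, 3557 and 3652 against 3991, 3138 and 3698, a log2 fold change of -0.08 (SE 0.09). The pericyte growth factor receptor Pdgfrb differed by -0.09 (SE 0.08), the potassium channel subunit Abcc9 by 0.06 (SE 0.08), Higd1b by -0.15 (SE 0.16), and the peptidase Anpep by -0.18 (SE 0.18).

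Smooth muscle genes had a median SD between mice of a group of 0.20 on the log2 scale, beside 0.14 for endothelial and for pericyte genes. Acta2, the actin of smooth muscle, counted 382, 303 and 259 in TG striatum versus 396, 299 and 322 in WT striatum, a log2 fold change of -0.12 (SE 0.15). The groups overlapped over most of their range. Tagln, an actin-binding protein, differed by -0.17 (SE 0.11), Myh11, the myosin heavy chain of this muscle, by 0.08 (SE 0.15), and the receptor Notch3 by -0.07 (SE 0.06). Tagln overlaps Pcsk7 (1045 normalized reads on average) and Notch3 overlaps Gm17276 on the opposite strand.

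Mice of one group also differed among themselves. The median over endothelial members of the log2 difference from the WT mean was 0.01, -0.09 and -0.06 in TG replicates 1, 2 and 3 and 0.07, -0.11 and 0.02 in WT replicates 1, 2 and 3. Pericyte medians were -0.03, -0.12 and -0.07 in TG striatum versus 0.06, -0.10 and 0.05 in WT striatum. For smooth muscle they were 0.10, -0.13 and -0.18 in TG striatum versus 0.12, -0.16 and 0.07 in WT striatum. WT replicate 2 was as low as any TG mouse in the endothelial median, and WT replicate 1 exceeded it in 21 of 26 endothelial and 10 of 10 mural genes (50.3% of all genes tested). Among TG mice, replicate 1 exceeded replicate 2 in 22 of 26 endothelial and 7 of 10 mural genes. Of the 36 members, 14 were highest in WT replicate 1, 11 in TG replicate 1 and 9 in WT replicate 3, whereas 13 were lowest in TG replicate 2 and 10 in WT replicate 2. For all genes tested no library held more than 17.8% of the highest values.

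**Figure D4:**
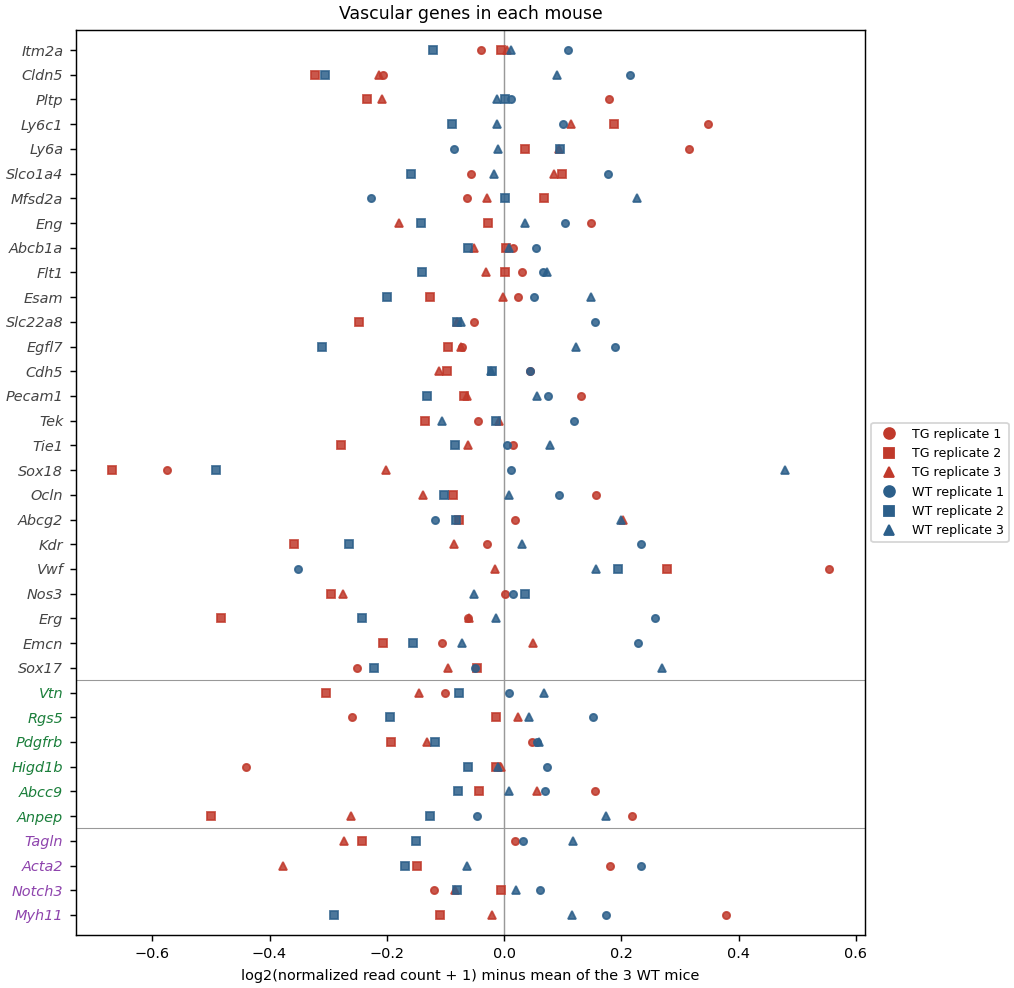
Each of the 36 vascular genes in each mouse, as log2(normalized read count + 1) minus the mean of the 3 WT mice, with Shank3 TG in red, WT in blue and one symbol per replicate number. Points of both colors mix in most rows, with Ly6c1 and Vtn the rows without overlap, and the squares (replicate 2 of each group) often lie to the left.

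Genes around the vessel wall were read from lists that are not members. Of 11 vascular ligands, 8 were lower and 3 higher in TG mice with a median of -0.11. Only Jag1, a Notch ligand, had a limma unadjusted p under 0.05 or groups that did not overlap. This 1 of 11 (9.09%) stands beside 4.31% and 10.1% of all genes tested. Jag1 counted 264, 257 and 268 in TG striatum versus 367, 328 and 308 in WT striatum, a log2 fold change of -0.34 (SE 0.09, limma unadjusted p = 0.0032, adjusted p = 0.971). Vegfa, which many brain cells make, was at 0.00 (SE 0.07). Of 15 tested signalling receptors and effectors, Notch1 (1105, 1033 and 957 against 1215, 1209 and 1217) and Acvrl1 were lower and Nrp1 (1041, 816 and 898 against 720, 788 and 797) higher at an unadjusted p under 0.05, with log2 fold changes of -0.24 (SE 0.06), -0.21 (SE 0.09) and 0.25 (SE 0.09). These 3 of 15 (20%) stand beside 4.31% of all genes tested. Jag1, Notch1 and Nrp1 did not overlap between groups, and Acvrl1 did. Hey1, a target of Notch signalling, also did not overlap, with 1708, 1748 and 1736 against 1874, 1799 and 1813. Its log2 fold change was -0.08 (SE 0.05, limma unadjusted p = 0.119). So 3 of 15 signalling genes (20%) did not overlap, beside 10.1% of all genes tested. The groups overlapped for Notch4, Heyl and the Notch ligand Dll4 of the same lists. Their log2 fold changes were 0.04 (SE 0.09), -0.05 (SE 0.20) and -0.15 (SE 0.17). Jag1, Notch1 and Nrp1 are also made outside the vessel wall. None of these passed adjustment.

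Barrier genes outside the member list had medians near 0. The 14 other barrier transporters had 7 higher and 7 lower with a median of -0.00, and 10 of 14 intervals lay within 1.2-fold and all 14 within 1.5-fold. The 12 genes of the Wnt barrier pathway split into 6 and 6 with a median of -0.03, from -0.44 to 0.30. The 10 junction proteins had a median of -0.03, from -0.16 to 0.29. No limma unadjusted p was under 0.05 in the transporter, Wnt or junction list. Within 1.2-fold lay 4 of 12 Wnt and 6 of 10 junction intervals, beside 49.2% of all genes tested. Groups did not overlap for 1 Wnt gene (8.33%) and 1 junction gene (10%), beside 10.1% of all genes tested. Of 10 basement membrane genes 8 were lower, with a median of -0.11. Lama5, a laminin chain, had 661, 598 and 512 reads against 729, 693 and 684, without overlap. Its log2 fold change was -0.26 (SE 0.09, limma unadjusted p = 0.0159, adjusted p = 0.971). Only this 1 of 10 (10%) had an unadjusted p under 0.05 or groups that did not overlap, beside 4.31% and 10.1% of all genes tested. Of 15 other mural genes 13 were lower, with a median of -0.06. Single libraries moved these medians: without TG replicate 1 they were -0.15 for other mural genes, -0.17 for basement membrane and -0.12 for the Wnt pathway. Without TG replicate 3 they were -0.00 for other mural genes and 0.03 for the Wnt pathway, and without TG replicate 2 the basement membrane median was -0.03.

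**Figure D5:**
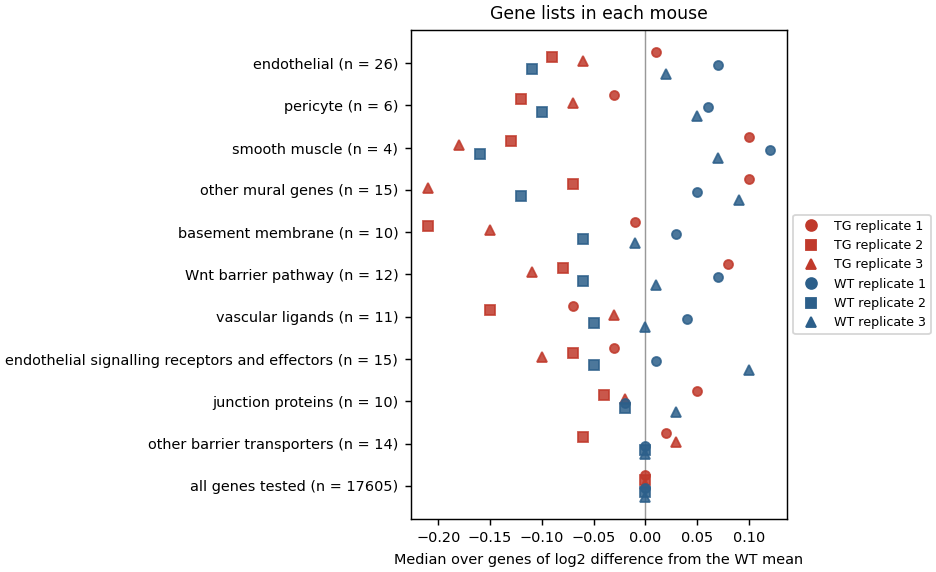
Median over the genes of a list of the log2 difference from the WT mean, one point per mouse, with Shank3 TG in red, WT in blue and a symbol per replicate number, for 3 member classes, 7 other vascular lists and all genes tested. The medians of all genes lie at 0, while those of the mural and endothelial classes spread between mice, from -0.18 to 0.12 for smooth muscle, with WT replicate 2 among the lowest in these classes.

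Markers of other cells that a striatal block can hold stood out in single mice. Of 13 tested choroid plexus markers all were higher in the TG mean, with a median log2 fold change of 1.30, and their summed level reached 15949 reads in TG replicate 1 and 2098 in the second TG mouse, with 713 in the remaining TG mouse and 630 to 987 in WT libraries. Ttr alone gave 13701 of these reads in TG replicate 1 and 1122 in TG replicate 2. The median over the markers of the log2 difference from the WT mean was 2.99, 1.06 and -0.10 in TG replicates 1, 2 and 3. In WT replicates 1, 2 and 3 it was -0.03, -0.07 and 0.08. Without TG replicate 1 the median log2 fold change was 0.41. The same library had the lowest Drd1 of the 6, at 4237 beside 5465 to 6615 in the others. The part of this library in the member values was not tested, but they were also computed without it: Ly6c1 was then at 0.15, Vtn at an unadjusted p still under 0.05, and 6 of 36 members were lower at that level (Anpep, Nos3, Pdgfrb, Pltp, Tagln and Vtn). Of all genes tested, 4.55% were lower at that level without this library and 2.33% with it. Fibroblast and meningeal markers summed to between 3302 and 4993 in TG and 3895 and 4843 in WT mice, with 11 of 12 lower in the TG mean and a median of -0.14, which was -0.44 without TG replicate 1 and 0.01 without TG replicate 3. Perivascular macrophage markers summed to between 374 and 479 in TG and 430 and 468 in WT mice, with 6 of 6 tested lower and a median of -0.10, which was -0.20 without TG replicate 2 and -0.03 without TG replicate 3. Most members were lower in the TG mean too, and the part of these cells in that was not tested. Blood markers summed to between 1868 and 3410 in TG and 1805 and 2285 in WT mice, all 5 tested higher in the TG mean with a median of 0.27, and 0.09 without TG replicate 1.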

How the data were processed

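Striatal RNA of 3 Shank3 TG and 3 WT mice was sequenced from libraries made with a TruSeq RNA kit (paired-end). According to the methods and the submitters' processing notes, the authors trimmed reads with Trimmomatic 0.35, aligned them to GRCm38 with TopHat2 2.1.0 and counted genes with HTSeq, and the deposited signal is the count of a gene over the library's DESeq2 size factor. The strand setting and annotation release are not given in the sources used here. Read counts were recovered from each library's step size, and 100% of values were whole within 0.01. Totals ran from 27689589 to 36647626. The intervals are for the difference between group means, with a standard error that rests on the spread between mice.

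Genes were named by GENCODE M21, which matched 45229 of 46078. Values were tested as log2(value + 1) with limma 3.58.1 (mean-variance trend) in R 4.3.3 over 17605 genes whose mean reached 10, at a Benjamini-Hochberg adjusted p of 0.05, so fold changes of low genes are understated. edgeR 4.0.16 (quasi-likelihood, TMM) and DESeq2 1.42.0 on the recovered reads were alternatives, as were TMM or total scaling, other filters and pseudocounts, each library left out and the replicate number as a block. The steps were tested on simulated data. All members are named, and of other lists the most abundant gene or those with an unadjusted p under 0.05. Ly6, hemoglobin and overlapping genes, and Hey1, Notch4, Heyl and Dll4, are named as neighbours or after their values were seen. The members and lists were chosen with earlier results of these data known, and no list was tested as a set. Levels per kb use the exon union of GENCODE M21. No sample was left out.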

Additional observations from a re-analysis of the deposited data

How the results depend on the processing

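No member was called in any of 15 alternative settings, and the smallest adjusted p of a member was 0.658. Of 324 member values under settings that kept all libraries, 319 kept direction and side of the threshold. The other 5 were Pecam1, at 0.00 under edgeR, DESeq2 and library totals, and Flt1, at -0.00 under edgeR and DESeq2. Over all genes, DESeq2 called 5 higher and 2 lower and no filter 4 and 1, and unadjusted p-values under 0.05 numbered 431 with DESeq2 and 1234 with no filter, beside 758. Members lower at that level numbered 3 with edgeR, DESeq2 and no filter (Cldn5, Sox18 and Vtn). Of all genes, 2.4%, 1.3% and 2.25% were lower in these settings, beside 2.33% in the main fit. The cause was not tested. With a mean of at least 100, pericyte medians were 0.05 in TG replicate 1 and -0.19 in TG replicate 2, with fewer genes entering.

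Leaving out each library in turn gave 1 to 2 genes called higher and 0 to 1 lower. Unadjusted p-values under 0.05 numbered 502 with TG replicate 3 left out and up to 1327 with TG replicate 1 left out. At that level 0 to 2 members were higher and 0 to 6 lower. The 2 higher were Ly6c1 and Vwf with TG replicate 3 left out, beside 1.51% of all genes higher. The 6 lower came with TG replicate 1 left out, beside 4.55% of all genes lower. With WT replicate 2 left out, 5 were lower (Cldn5, Egfl7, Kdr, Sox18 and Vtn), beside 1.81%, and none higher. No member was lower with TG replicate 2 or WT replicate 3 left out, beside 2.88% and 1.86%. Medians ran from -0.08 to -0.01 (endothelial), -0.18 to -0.08 (pericyte) and -0.16 to -0.02 (smooth muscle). In 16 members 31 of 216 such values changed sign, over ranges of -0.07 to 0.04 (Pecam1, Flt1, Itm2a), -0.04 to 0.13 (Slco1a4), -0.04 to 0.02 (Abcb1a), -0.03 to 0.15 (Abcg2), -0.13 to 0.04 (Esam), -0.24 to 0.00 (Sox17), -0.24 to 0.01 (Egfl7), -0.17 to 0.03 (Emcn), -0.10 to 0.06 (Eng), -0.11 to 0.04 (Ocln), -0.12 to 0.10 (Mfsd2a), -0.18 to 0.01 (Rgs5), -0.26 to 0.02 (Acta2) and -0.07 to 0.18 (Myh11). Named genes outside the member list that did so included Abcb1b (-0.06 to 0.02), Ly6e (-0.03 to 0.15), Ly6h (-0.03 to 0.13) and Lynx1 (-0.05 to 0.04). Others were Pcsk7 (-0.10 to 0.02), Gm17276 (-0.29 to 0.03), Notch4 (-0.01 to 0.10), Heyl (-0.25 to 0.12), Vegfa (-0.05 to 0.06) and Ackr1 (-0.04 to 0.07).

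Same-numbered TG and WT mice shared little beyond the number, with correlations of their deviations of 0.0474, 0.0163 and 0.0928. With the replicate number as a block, 4 members were lower (Cldn5, Kdr, Sox18 and Vtn) and 1 higher at an unadjusted p under 0.05, and none was called. Of all genes tested, 3.21% were lower and 2.6% higher at that level, beside 2.33% and 1.98% without the block.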

Other observations

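The values of 3 genes outside the member list, Lcn2, S100a8 and S100a9, are given here, chosen after their values were seen. Lcn2, lipocalin-2, which inflamed endothelium and astrocytes make, counted 105, 48.3 and 27.3 normalized reads in TG replicates 1, 2 and 3 and 10.3, 17.8 and 17.7 in WT mice. The groups did not overlap, and the log2 fold change was 1.74 (SE 0.42, limma unadjusted p = 0.00181). DESeq2 on the recovered reads gave an adjusted p of 0.0321, where edgeR on the same reads gave 0.976 and limma gave 0.971. S100a9 counted 11.2, 11.2 and 9.74 in TG striatum versus 2.29, 0.935 and 2.95 in WT striatum, and S100a8 counted 7.72, 4.5 and 6.82 against 1.14, 0.935 and 2.95. Both were below the minimum mean of 10 and were not tested. Among 7 tested genes of vein and fenestrated endothelium, 4 including Lcn2 were higher and 3 lower, with a median log2 fold change of 0.00, and Ackr1, a venous chemokine receptor, differed by 0.00 (SE 0.06). TG replicate 1, the library with the most choroid plexus RNA, was also the highest for Lcn2.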
